A study of Mus musculus with 15 samples.

Results

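The 32 genes described here encode acid hydrolases of the lysosome, proteins of its membrane and subunits of the proton pump that acidifies it. They were given by symbol, as genes known to act in the lysosome, and no threshold on expression chose them. They were, however, chosen with earlier results of these data known, so shares set beside all tested genes are descriptions. All 32 were found among the 53088 gene symbols shared by the 2 deposited expression tables, and all 32 had a mean of at least 1 FPKM (read fragments scaled to gene length in kilobases and to the mapped fragments of the library) in each cell line. By role they comprised 7 proteases, 8 glycosidases and a sulfatase taken as 1 group, 6 lipid hydrolases and cofactors, 6 membrane proteins and 5 proton pump genes.

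Polyadenylated RNA of 15 libraries from 2 mouse tumour lines was sequenced. MC38, a colon adenocarcinoma line, gave 4 wild-type libraries and 3 libraries from cells stably transduced with a pMSCV-IRES-EGFP retrovirus carrying murine Ssbp4 cDNA (overexpression). B16-F10, a melanoma line, gave 4 wild-type libraries and 4 knockout libraries. The knockout cells were electroporated with Cas9 and a mixture of guide RNAs against Ssbp4, and the treatment text pairs them with a control guide RNA aimed at an intergenic region of chromosome 2. The labels name no group with an empty vector, so the effect of Ssbp4 cannot be told apart from that of transduction, EGFP or later culture in MC38. They give melanoma as the tissue of both lines, whereas MC38 library names say colon. Whether replicate libraries stem from separate cultures is not stated, and p-values therefore cover only library-to-library spread, which may be technical.

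Lysosomes degrade proteins, glycans and lipids with soluble hydrolases that work best at acid pH, which the vacuolar ATPase (V-ATPase) maintains by pumping protons into the lumen. Most of these hydrolases reach the lysosome through mannose 6-phosphate receptors. Many lysosomal genes are known targets of the MiT/TFE transcription factors Tfeb, Tfe3 and Mitf, which bind the E-box CACGTG and a longer palindrome around it. Mitf also governs the pigment cell programme, and the melanosome, the pigment organelle, is a lysosome-related compartment that shares hydrolases, membrane proteins and the proton pump with the lysosome.

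Because this E-box is the sequence that links lysosomal genes to these factors, the promoter windows of the members were searched for it. The windows, from RefSeq on GRCm38.p6, cover 250 bases before to 50 bases after an annotated start, and 29 of the 32 members had at least 1. CACGTG, which reads the same on both strands, was present in a window of 13 of the 29 members (44.8%), against 8.09% of all 27025 genes with a window. The longer palindrome TCACGTGA, which contains CACGTG, was present in 6 members (20.7%), against 1.12% of all genes. The 6 were the proteases Ctsa and Ctsd, the membrane proteins Cln3 and Mcoln1, and the proton pump genes Atp6v0d1 and Atp6v1a. With a G before and a C after it, the palindrome was present in 1 member, Cln3 (3.45%), against 0.37% of all genes. A match describes letters in a window and does not show that a factor binds there.

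Stretches around the matches are printed below for 7 members that recur in the results, 5′ to 3′ on the strand of the gene, with the E-box or the longer palindrome in capitals. Lamp1 held 4 copies of CACGTG within the last 61 bases before its start, the most of any member. Cln3, Ctsd and Mcoln1 each held 1 CACGTG and 1 TCACGTGA. Ctsa held TCACGTGA on both sides of its start, of which only the copy before the start is shown.
Lamp1, chr8:13159074-13159160, plus strand: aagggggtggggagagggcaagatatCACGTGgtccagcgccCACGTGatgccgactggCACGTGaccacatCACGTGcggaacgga
Mcoln1, chr8:3500422-3500506, plus strand: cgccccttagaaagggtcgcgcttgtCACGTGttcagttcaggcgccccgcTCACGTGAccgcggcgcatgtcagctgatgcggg
Cln3, chr7:126583325-126583411, minus strand: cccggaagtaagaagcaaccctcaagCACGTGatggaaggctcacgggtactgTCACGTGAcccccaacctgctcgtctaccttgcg
Ctsd, chr7:142387893-142388077, minus strand: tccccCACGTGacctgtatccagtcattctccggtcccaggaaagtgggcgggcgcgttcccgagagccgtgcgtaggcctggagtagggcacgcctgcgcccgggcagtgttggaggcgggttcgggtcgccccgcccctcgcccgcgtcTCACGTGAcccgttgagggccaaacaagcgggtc
Ctsa, chr2:164833734-164833772, plus strand: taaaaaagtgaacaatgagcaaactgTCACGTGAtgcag
Naglu, chr11:101069995-101070052, plus strand: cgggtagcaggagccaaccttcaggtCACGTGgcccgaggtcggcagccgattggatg
Atp6v1a, chr16:44139358-44139417, minus strand: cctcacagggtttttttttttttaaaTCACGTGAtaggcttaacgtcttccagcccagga

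**Figure D1:**
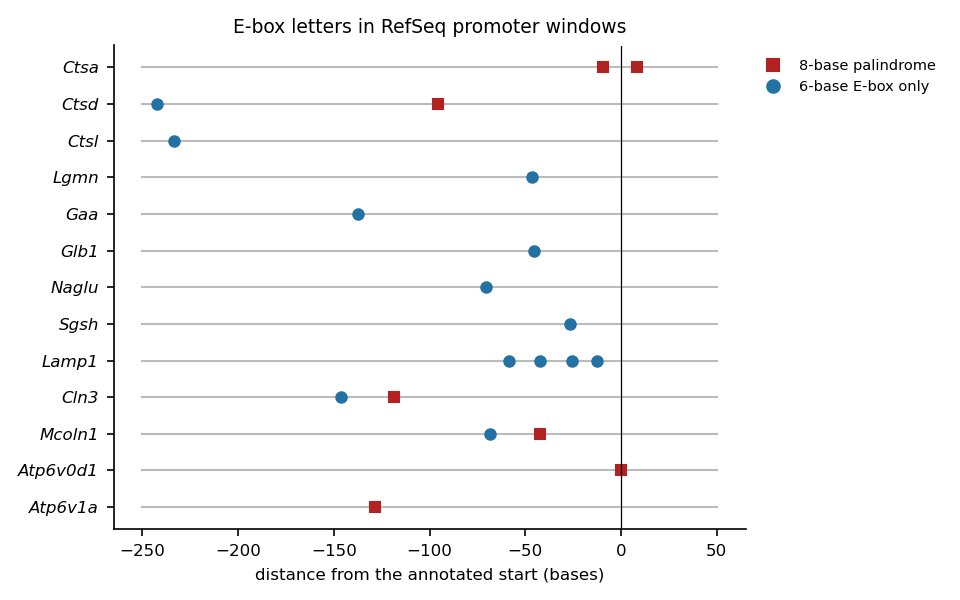
Position of each E-box match, drawn at its centre, relative to the annotated start (x axis, bases) in the 13 members that hold 1 or more; the grey lines span the searched window. Red squares mark the 8-base palindrome and blue circles the 6-base E-box alone. Lamp1 carries 4 circles between its start and 61 bases before it.

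The altered gene differed in the labelled direction in every library. Ssbp4 measured 13.2 to 17.6 FPKM in wild-type MC38 and 462 to 581 FPKM after transduction. B16-F10 wild-type libraries had 32.4 to 37.4 FPKM and knockout libraries 19.0 to 24.3 FPKM, so that 64.1% of the mean transcript level remained in the knockout. The exact permutation test (two-sided) gave p = 0.0286 in each line, the smallest that 4 against 3 or 4 against 4 libraries allow. Estimated depth was 32.5 to 48.7 M fragments per library. The 7 melanocyte markers together reached 10982 to 14154 FPKM in B16-F10, while in MC38 the 7 colon epithelium markers together reached only 6.64 to 10.7 FPKM and Cdx2 was at 0. Among these, Krt8 rose from 3.22 to 9.45 FPKM and Krt18 fell from 3.23 to 0.0607 FPKM with overexpression, while Epcam went from 0.846 to 0 and Cdh1 from 0.306 to 0.0333 FPKM, both under the filter. Leukocyte markers, 7 in number and including the lysosomal Cd68, summed to 3.81 to 6.70 FPKM in MC38 and 1.86 to 4.04 FPKM in B16-F10.

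The first comparison asked how lysosomal transcripts changed when MC38 cells overexpressed Ssbp4. Of the 32 members 17 rose and 5 fell at an adjusted p under 0.05 (limma, Benjamini-Hochberg adjustment over 10748 genes). The glycosidases, the lipid hydrolases and the proton pump genes that passed all rose, whereas 3 of 6 membrane proteins fell and 1 rose, and of the proteases 3 rose and 2 fell. The share of members that rose was 53.1%, against 23.9% of all tested genes, and the share that fell was 15.6%, against 23.6%. The median log2 fold change of the members was 0.17, beside -0.0088 over all tested genes. Every change was small: log2 fold changes on the log2(FPKM + 1) scale, which understates those of low genes, ran from -0.40 to 0.59, and no member changed 2-fold. The libraries of the groups did not overlap for 17 members that were higher (53.1%, against 25.5% of all tested genes) and 5 that were lower (15.6%, against 25.1%).

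**Figure D2:**
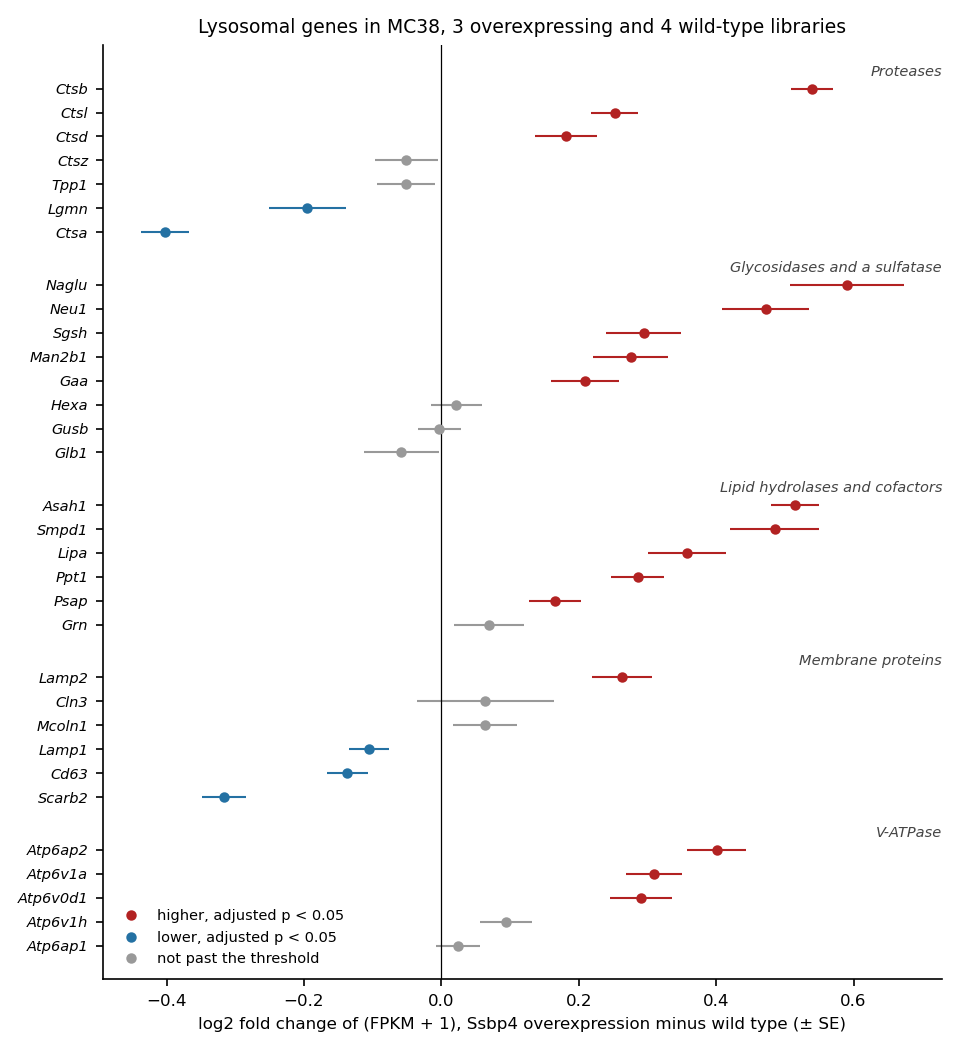
Log2 fold change of (FPKM + 1), overexpressing minus wild-type MC38 (x axis, point ± SE, 3 against 4 libraries), for the 32 members grouped by role. Red points are higher and blue points lower at an adjusted p under 0.05; the values run from -0.40 for Ctsa to 0.59 for Naglu.

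Among the 7 proteases, Ctsb, Ctsl and Ctsd rose, Ctsa and Lgmn fell, and Ctsz and Tpp1 did not pass. Ctsb, a cysteine cathepsin, measured 109.8, 116, 113 and 112 FPKM in the wild-type libraries and 164, 164 and 165 FPKM in the overexpressing ones. The overexpressing libraries lay within 2 FPKM of each other and far above the wild type (log2 fold change 0.54, SE 0.03, adjusted p = 3.95e-07). Ctsl, the cysteine cathepsin with the highest level among the MC38 proteases, went from 255 ± 6.08 to 304 ± 9.07 FPKM (SD, n = 4 and 3; log2 0.25, adjusted p = 1.95e-04). For Ctsd, an aspartic protease, the means were 104 ± 5.95 and 119 ± 2.37 FPKM (log2 0.18, adjusted p = 0.00737).

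Ctsa moved the other way. It encodes protective protein/cathepsin A, a serine carboxypeptidase that also stabilises beta-galactosidase and neuraminidase. Wild-type libraries measured 54.7 to 58.3 FPKM and overexpressing ones 41.7 to 42.6 FPKM, without overlap, and its log2 fold change, -0.40 with an SE of 0.04 (adjusted p = 9.64e-06), was the lowest of all members. Lgmn, asparagine endopeptidase, fell by 0.20 on the log2 scale, from 12.4 to 13.2 FPKM in wild type to 10.03 to 11.7 FPKM (adjusted p = 0.0159). This call was lost without overexpression library 2 (adjusted p = 0.0696). Ctsz, cathepsin Z, had means of 167 and 162 FPKM, and Tpp1, tripeptidyl peptidase, had means of 20.5 and 19.7 FPKM, with overlapping libraries in each case.

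Of the 8 genes that act on glycans, 5 rose and none fell, with 3 not passing. The 5 were Naglu and Sgsh, which act in heparan sulfate breakdown, Neu1, the lysosomal sialidase, Man2b1, an alpha-mannosidase, and Gaa, the acid alpha-glucosidase that degrades glycogen. Naglu measured 6.17 to 7.86 FPKM in wild type and 10.3 to 12.4 FPKM in overexpressing cells, the highest log2 fold change of the members at 0.59 (SE 0.08, adjusted p = 2.34e-04). Neu1 measured 3.62, 3.75, 3.77 and 3.85 FPKM against 5.15, 5.595 and 6.045 FPKM (log2 0.47, adjusted p = 1.84e-04). In both genes every overexpressing library lay above every wild-type library, at levels among the lowest of the members. Neu1 thus rose while Ctsa, which encodes its stabilising partner, fell.

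The other glycan-degrading genes moved less. Sgsh went from 8.46 to 10.6 FPKM (log2 0.29, adjusted p = 0.00155), Man2b1 from 9.39 to 11.6 FPKM (log2 0.28, adjusted p = 0.00220) and Gaa from 54.9 to 63.5 FPKM (log2 0.21, adjusted p = 0.00578). Hexa, a beta-hexosaminidase subunit, Gusb, beta-glucuronidase, and Glb1, beta-galactosidase, had log2 fold changes of 0.02, -0.0032 and -0.06, and their libraries overlapped.

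Lipid handling showed the highest share of rises. Of 6 genes 5 rose, none fell, and Grn, which encodes progranulin, did not pass (log2 0.07, adjusted p = 0.290). Asah1, acid ceramidase, measured 43.6, 42.4, 45.0 and 42.0 FPKM in wild type and 62.4, 61.9 and 62.4 FPKM in overexpressing cells (log2 0.52, SE 0.03, adjusted p = 1.51e-06). Smpd1, acid sphingomyelinase, whose product ceramide is the substrate of acid ceramidase, measured 6.10 to 7.32 FPKM against 9.41 to 10.4 FPKM (log2 0.49, adjusted p = 1.78e-04). Both sphingolipid enzymes were higher in every overexpressing library than in any wild-type library. Lipa, lysosomal acid lipase, which releases cholesterol from its esters, went from 11.4 ± 0.678 to 14.8 ± 0.757 FPKM (SD, n = 4 and 3; log2 0.36, adjusted p = 5.66e-04). Smaller rises were those of Ppt1, a palmitoyl-protein thioesterase, from 22.9 to 28.1 FPKM (log2 0.29), and of Psap, the precursor of the saposins that present sphingolipids to their hydrolases, from 201 to 225 FPKM (log2 0.17, adjusted p = 0.00486).

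Among the 6 membrane proteins, Scarb2, Cd63 and Lamp1 fell, Lamp2 rose, and Cln3 and Mcoln1 did not pass. Scarb2, the lysosomal membrane protein LIMP-2, measured 48.8 to 50.5 FPKM in wild type and 39.4 to 40.02 FPKM in overexpressing cells (log2 -0.32, SE 0.03, adjusted p = 2.97e-05). Cd63, a tetraspanin of late endosomes and exosomes, measured 482 to 488 FPKM against 433 to 446 FPKM (log2 -0.14, adjusted p = 0.00369). Lamp1, a heavily glycosylated membrane protein, measured 231 to 234 FPKM against 212 to 220.1 FPKM (log2 -0.11, adjusted p = 0.0130). Its call was lost without overexpression library 2 (adjusted p = 0.0584) and when columns were scaled to a common total (adjusted p = 0.0559). Lamp2, which resembles Lamp1 in structure, rose instead, from 56.4 to 63.0 FPKM in wild type to 71.0 to 73.8 FPKM (log2 0.26, adjusted p = 6.89e-04). The groups of these 4 genes did not overlap. Mcoln1, the TRPML1 calcium channel, and Cln3, a membrane protein mutated in a juvenile form of Batten disease, each had a log2 fold change of 0.06.

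Of the 5 proton pump genes 3 rose and none fell. Atp6ap2, an accessory subunit also known as the prorenin receptor, measured 22.0 to 23.7 FPKM in wild type and 29.2 to 31.4 FPKM in overexpressing cells (log2 0.40, SE 0.04, adjusted p = 3.97e-05). Atp6v1a, the catalytic subunit, went from 24.9 to 31.1 FPKM (log2 0.31, adjusted p = 1.58e-04) and Atp6v0d1, a subunit of the membrane sector, from 28.1 to 34.6 FPKM (log2 0.29, adjusted p = 4.63e-04). These 3 did not overlap between groups. Atp6v1h, a regulatory subunit, had means of 49.9 and 53.3 FPKM (adjusted p = 0.0636), and passed when columns were scaled to a common total (adjusted p = 0.0232). Atp6ap1, the other accessory subunit, had a log2 fold change of 0.02.

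Summed over the 32 members, the transcript level was 2367 to 2446 FPKM in wild-type and 2510 to 2568 FPKM in overexpressing MC38 libraries, without overlap. That was 0.466 to 0.483% and 0.509 to 0.515% of the column totals. The membrane proteins, led by Cd63 and Lamp1, ran against this sum: 836 to 849 FPKM in wild type and 778 to 788 FPKM in overexpressing cells. Fibroblast markers also moved between these groups. The 5 markers summed to 82.0 to 87.4 FPKM in wild type and 384 to 392 FPKM in overexpressing cells. Only 2 of the 5 averaged at least 1 FPKM in wild type and 3 in overexpressing cells, though none was at 0 in all libraries. The part of these and of the epithelial markers in the lysosomal values was not tested, and in bulk RNA a change in the cells present cannot be told apart from a change in RNA per cell.

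Members with and without an E-box in the promoter window were also counted apart. Of 13 members with CACGTG, 7 rose and 3 fell (53.8% and 23.1%). Of 16 members with a window and no CACGTG, 8 rose and 2 fell (50% and 12.5%). Over all tested genes 23.9% rose and 23.6% fell. Ctsa, with TCACGTGA on both sides of its start, and Lamp1, with 4 copies of CACGTG, both fell, whereas Atp6v1a and Naglu rose. The counts carry no test.

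Other genes of the same organelle were read in the same fit. They came from lists of known function, chosen with earlier results of these data known. In that fit 23.9% of all tested genes rose and 23.6% fell. Of 46 other lysosomal hydrolases and proteins, 19 rose and 4 fell (41.3% and 8.70%, median log2 0.14). They were led by Cd164, the sialomucin endolyn, from 98.8 to 160.4 FPKM (log2 0.69, adjusted p = 3.10e-07), and Laptm4b, a 4-pass membrane protein, from 58.7 to 93.1 FPKM (log2 0.66, adjusted p = 3.92e-07). Nagpa, the enzyme that uncovers the mannose 6-phosphate tag, fell from 4.70 to 2.96 FPKM (log2 -0.51, adjusted p = 0.00245), and Acp2, lysosomal acid phosphatase, fell from 9.84 to 8.16 FPKM (log2 -0.24, adjusted p = 0.00403). Of 12 other V-ATPase subunits 7 rose (58.3%), among them Atp6v0a1 (log2 0.36) and Atp6v0b (log2 0.35), and none fell. Without overexpression library 3 the number of these subunits called was 4. Of 20 MiT/TFE factors and components of their mTORC1 control, 8 rose and 3 fell. The highest were Fnip2, a folliculin partner (log2 0.50), and Rptor, the raptor subunit of mTORC1 (log2 0.36), and the lowest was Rragb, a Rag GTPase (log2 -0.29). Of the factors themselves, Tfe3 fell by 0.15 on the log2 scale, from 12.5 to 11.1 FPKM (adjusted p = 0.0282), Tfeb had means of 1.86 and 2.41 FPKM (adjusted p = 0.0738), and Mitf, with a wild-type mean of 1.08 FPKM, was under the filter.

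**Figure D3:**
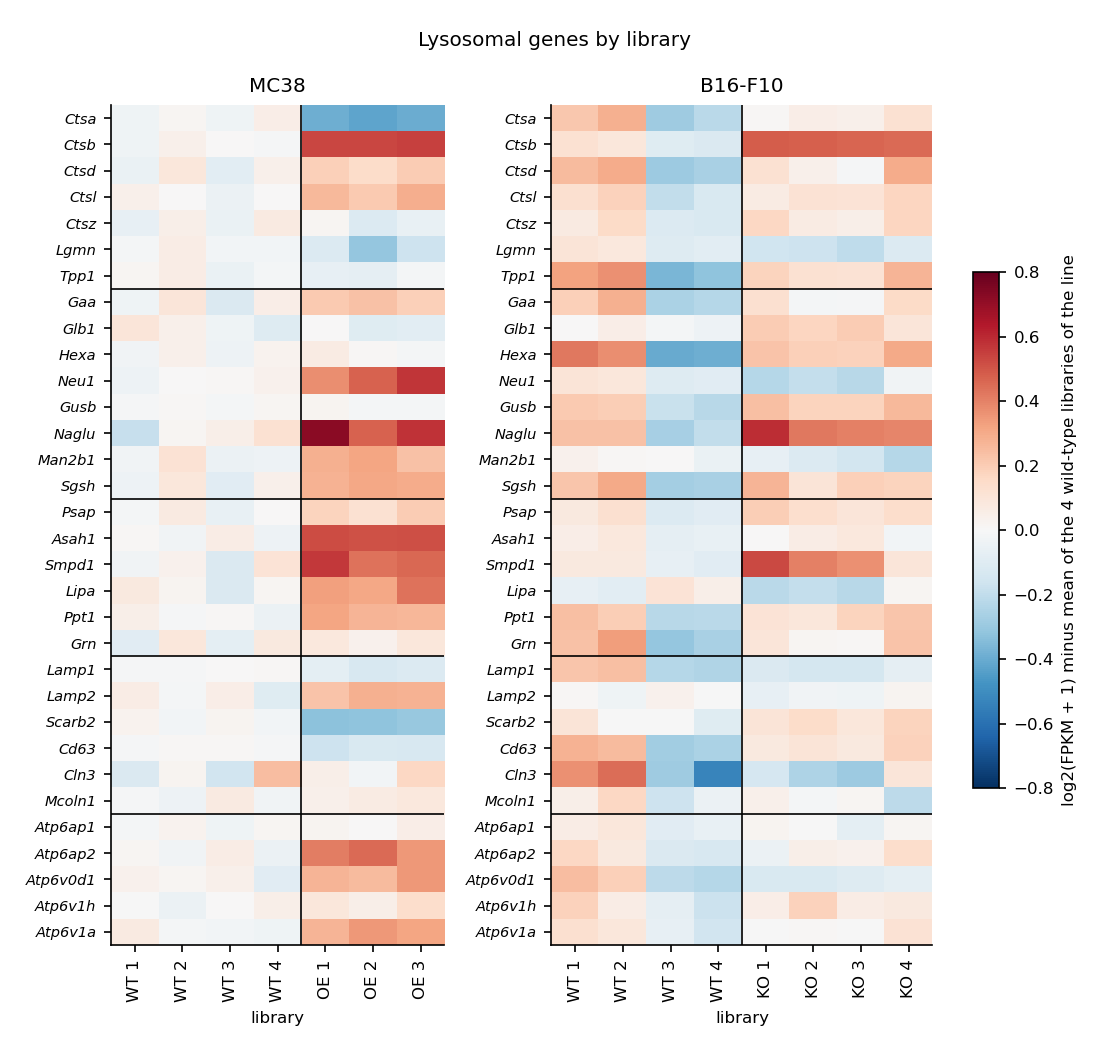
Log2(FPKM + 1) of each member in each library (columns) minus the mean of the 4 wild-type libraries of its line; rows are the 32 members, with lines between roles. In MC38 the 3 overexpressing libraries share 1 pattern, whereas in B16-F10 wild-type libraries 1 and 2 both lie above 3 and 4 for 30 of 32 members.

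Before the B16-F10 comparison, its wild-type libraries have to be described, since they fell into pairs. In 30 of the 32 members both libraries 1 and 2 were higher than both libraries 3 and 4 (93.8%, against 35.8% of all tested genes). Lipa ran the opposite way, and Lamp2 was mixed. The median ratio of the first pair to the second was 1.19 over the members and 0.996 over all tested genes. Across all tested genes a principal component holding 42.8% of the variance separated these pairs, and the knockout libraries lay between them. No label names a batch, and the source of the split was not tested.

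The split was wide for several abundant hydrolases. Hexa measured 305, 294 and then 171 and 173 FPKM in wild-type libraries 1 to 4, a ratio of 1.74. Knockout libraries, at 258 to 280.5 FPKM, lay wholly between the pairs. Tpp1 measured 147 and 152 against 91.0 and 93.4 FPKM (ratio 1.62), and Ctsd, the most abundant member, 935 and 965 against 641 and 654 FPKM (ratio 1.47). Cln3, the highest ratio of all at 1.82, measured 19.4 and 20.5 against 12 and 9.98 FPKM. Cd63 (ratio 1.45) and Lamp1 (ratio 1.38) showed the same order among the membrane proteins. All 7 proteases, all 8 glycan-degrading genes and all 5 proton pump genes were higher in libraries 1 and 2, as were 5 of 6 lipid and 5 of 6 membrane genes.

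Related genes shared this order to differing degrees. Among the other V-ATPase subunits 12 of 13 were higher in both libraries 1 and 2 (92.3%, against 35.8% of all tested genes). The same held for 23 of 28 melanosome genes (82.1%) and 33 of 48 other lysosomal genes (68.8%). Of the MiT/TFE factors and mTORC1 components 9 of 23 were higher in both (39.1%), near the share of all tested genes. Mitf measured 162, 161, 132 and 127 FPKM in wild-type libraries 1 to 4 and 166 to 172 FPKM in the knockout libraries, above all wild-type ones (adjusted p = 0.158). Tfeb ran the other way among the wild-type libraries, at 4.50, 4.78, 6.16 and 6.21 FPKM. Melanocyte markers moved with the split as well, their sum spanning 10982 to 14075 FPKM over the wild-type libraries and 13645 to 14154 FPKM over the knockout libraries.

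The second comparison asked how the lysosomal genes differed between Ssbp4 knockout and wild-type B16-F10 cells. Of the 32 members only Ctsb passed, and it rose; none fell. That was 3.12% of the members higher, against 1.33% of all 10902 tested genes, while 0.899% of all tested genes were lower. At an unadjusted p under 0.05 there were 9 members (28.1%, against 21.3% of all tested genes). The median log2 fold change was 0.09, beside 0.02 over all tested genes. Libraries did not overlap for 4 members that were higher in the knockout (12.5%, against 8.53% of all tested genes), namely Ctsb, Naglu, Smpd1 and Glb1, and for 2 that were lower (6.25%, against 5.32%), Lgmn and Man2b1.

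Ctsb measured 163, 159, 140.2 and 138 FPKM in wild type and 210, 209, 207 and 205 FPKM in the knockout. All 4 knockout libraries lay close together and above both wild-type pairs (log2 fold change 0.47, SE 0.06, adjusted p = 0.0104). The knockout mean was 1.29 times that of wild-type libraries 1 and 2 and 1.49 times that of libraries 3 and 4. Ctsb lies on chromosome 14, whose 355 tested genes had a median log2 fold change of 0.16 in the knockout with or without Ctsb, the highest of all chromosomes. After each library was centred per chromosome, the value was 0.32 (adjusted p = 0.0503), and the call was also lost without knockout library 1, 2 or 3 (adjusted p = 0.0554, 0.0586 and 0.0554).

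The other non-overlapping members did not pass. Naglu measured 60.1, 60.2, 42.2 and 44.4 FPKM in wild type and 77.3, 68.9, 67.9 and 67.3 FPKM in the knockout (log2 0.45, adjusted p = 0.0748). Smpd1 measured 38.1, 38.1, 34.4 and 33.7 FPKM against 52.4, 47.9, 46.6 and 38.6 FPKM (log2 0.35, adjusted p = 0.0683). Knockout library 4 was the lowest of its group for Smpd1, and without it the gene passed (adjusted p = 0.0188). That library also stood apart over all tested genes. Its score on the second principal component was -0.01, against -0.083 to -0.11 for knockout libraries 1 to 3. Leaving it out raised the number of all genes called to 414. Glb1 had means of 28.9 and 32.7 FPKM (adjusted p = 0.0766). On the lower side Lgmn had means of 39.5 and 35.2 FPKM (log2 -0.16, adjusted p = 0.164) and Man2b1 of 23.0 and 20.8 FPKM (log2 -0.14, adjusted p = 0.154).

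**Figure D4:**
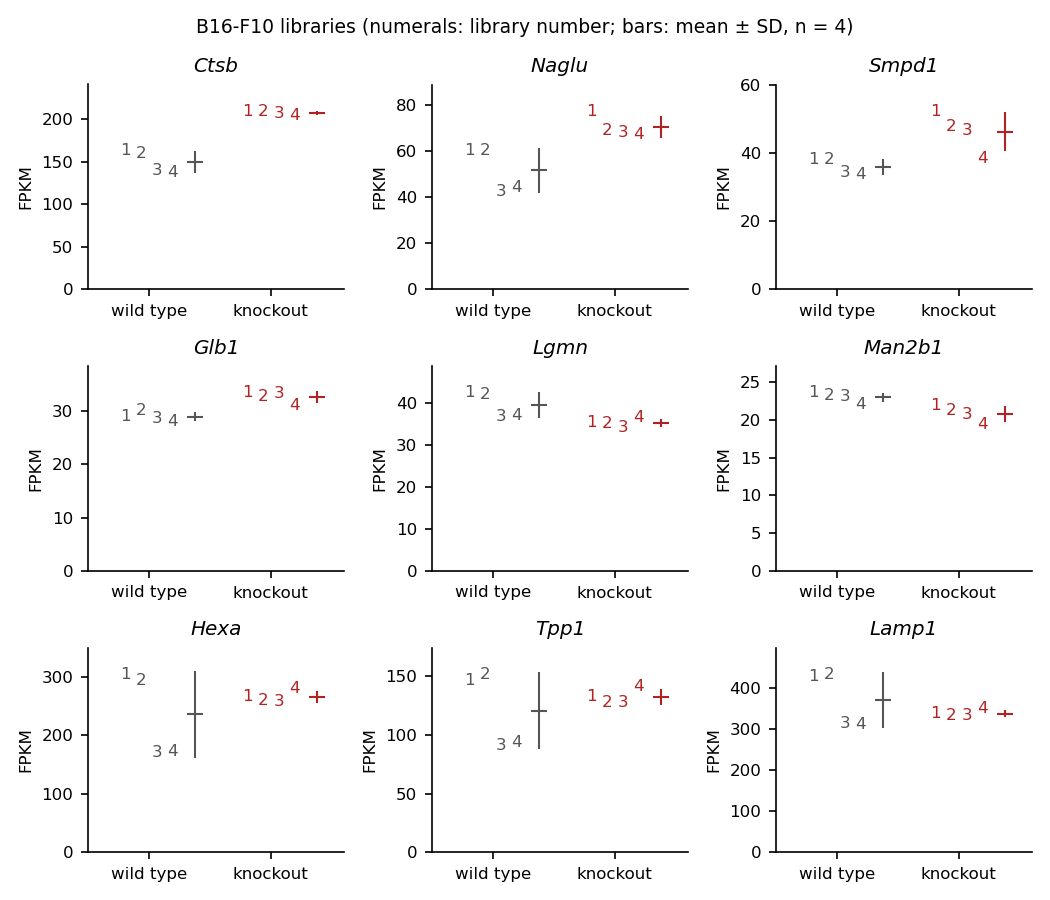
FPKM (y axis, from 0) of 9 members in each B16-F10 library, drawn as its library number, with the group mean ± SD (n = 4) as bars. For Ctsb every knockout library lies above every wild-type library, whereas for Hexa and Tpp1 the knockout libraries lie between wild-type libraries 1 and 2 and libraries 3 and 4.

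For many members the direction differed with the wild-type pair taken as reference. Knockout libraries lay wholly inside the wild-type range for 15 members, partly outside for 11 and outside for 6. The knockout mean was below the mean of wild-type libraries 1 and 2 in 24 of 32 members (median ratio 0.945). Against libraries 3 and 4 it was above in 27 of 32 (median ratio 1.18). Over all tested genes the knockout mean was higher in 56.7% and 54.8% respectively, with median ratios of 1.019 and 1.018. Summed over the members, the level was 4776 and 4825 FPKM in wild-type libraries 1 and 2, 3569 and 3588 FPKM in libraries 3 and 4, and 4282 to 4673 FPKM in the knockout.

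The other lists gave few calls in B16-F10. Of 48 other lysosomal genes only Gm2a, the GM2 activator, passed, from 8.66 to 10.3 FPKM (log2 0.22, adjusted p = 0.0495). It passed in 1 of the 8 fits that left out a library (adjusted p up to 0.163) and in 3 of the 10 other settings. Of 13 other V-ATPase subunits only Tcirg1, which encodes the a3 subunit, passed, and it fell from 55.0 to 45.05 FPKM (log2 -0.28, adjusted p = 0.0288). That call held in 9 of the 10 other settings. It held in 2 of the 8 fits with a library left out, those without wild-type library 1 or knockout library 4. In the other such fits it was lost (adjusted p up to 0.118). None of 23 MiT/TFE factors and mTORC1 components passed. At an unadjusted p under 0.05 there were 2 (8.70%, against 21.3% of all tested genes). Lamtor1, a Ragulator subunit and the most abundant of that list after Mitf, had means of 133 and 131 FPKM. Of the 17 members that rose with Ssbp4 overexpression in MC38, 12 had a positive and 5 a negative log2 fold change in the B16-F10 knockout, from -0.17 to 0.47. The signs were divided much alike among the others, with 7 of 10 uncalled members and 3 of 5 that fell in MC38 positive in B16-F10. Ctsb passed as higher in both lines.

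The last comparison set wild-type levels of the lysosomal genes in the melanoma line beside those in the colon line. The tables were normalised separately, so the values are a description without a test. All wild-type B16-F10 libraries were above all wild-type MC38 libraries for 25 of 32 members (78.1%, against 41.2% of the 9739 genes tested in both lines), and all were below for 2 (6.25%, against 36.4%). The median ratio of B16-F10 to MC38 was 1.66, beside 1.04 over all those genes. Leaving out any wild-type library kept the median log2 ratio of the members between 0.65 and 0.77.

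Proton pump and glycan-degrading genes showed the highest medians, 2.62 and 2.22 times the MC38 level. Proteases followed at 1.68, membrane proteins at 1.58 and lipid genes at 1.30. Ctsd was 7.64 times higher in B16-F10, at 799 ± 175 against 104 ± 5.95 FPKM (SD, n = 4 each). Naglu was 7.22 times, Neu1 6.54 times, Tpp1 5.88 times, Smpd1 5.37 times and Cln3 5.25 times higher. In the proton pump Atp6v0d1 was 4.88 times higher, at 137 against 28.1 FPKM, and Atp6v1a 3.49 times, at 87.0 against 24.9 FPKM. All 12 other V-ATPase subunits tested in both lines were also higher in B16-F10, with a median ratio of 2.63.

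Scarb2 and Ctsl ran against the rest. Scarb2 measured 49.6 ± 0.953 FPKM in MC38 and 12.1 ± 0.733 FPKM in B16-F10 (SD, n = 4 each), 4.10 times higher in MC38. Ctsl measured 255 ± 6.08 and 87.5 ± 11.4 FPKM, 2.91 times higher in MC38. For Sgsh, Asah1, Grn, Cd63 and Atp6v1h the libraries of the lines overlapped.

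The rank order of the members differed accordingly. FPKM is per length, so levels can be compared between genes. In B16-F10 the highest members were Ctsd (799 FPKM), Cd63 (588 FPKM) and Lamp1 (372 FPKM). Ctsd exceeded Cd63 within each wild-type library, at 935, 965, 641 and 654 against 702, 689, 477 and 486 FPKM. The ranges of Ctsd and Cd63 overlapped only across libraries. In MC38 the highest members were Cd63 (485 FPKM), Ctsl (255 FPKM) and Lamp1 (232 FPKM), whose libraries did not overlap. The lowest were Sgsh in B16-F10 (9.21 FPKM) and Cln3 in MC38 (2.94 FPKM).

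**Figure D5:**
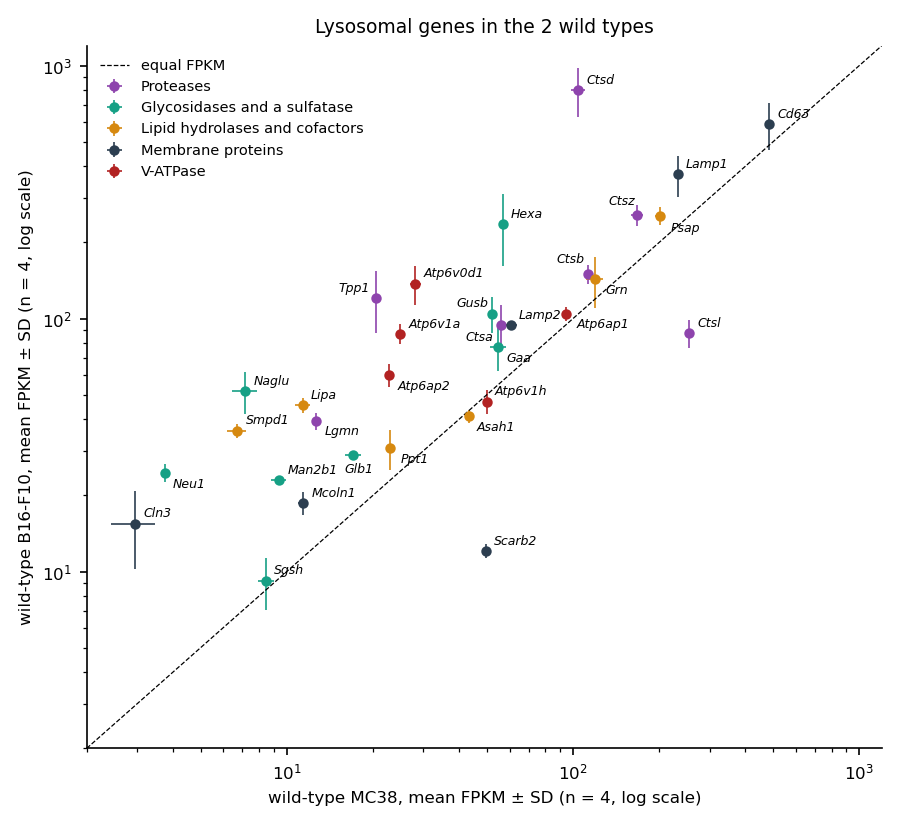
Mean FPKM of each member in wild-type MC38 (x axis) and wild-type B16-F10 (y axis), both on log scales, with bars of ± SD (n = 4 each) and the line of equal FPKM dashed. Most members lie above the line; Ctsl and Scarb2 lie well below it.

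Mitf, the MiT/TFE factor of pigment cells, stood at 145 FPKM in wild-type B16-F10 and 1.08 FPKM in MC38, and Tfeb at 5.41 and 1.86 FPKM. The 5 most abundant melanosome genes in B16-F10 were Tyrp1 (4494 FPKM), Dct (3183 FPKM), Pmel (2649 FPKM), Gpnmb (2147 FPKM) and Mlana (1672 FPKM). Of these only Gpnmb, a glycoprotein of melanosomes and lysosomes, exceeded 1 FPKM in wild-type MC38, at 74.4 FPKM, and Tyrp1 and Mlana were at 0 in all 4 wild-type libraries. Their part in the difference in lysosomal genes was not tested.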

How the data were processed

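Stranded polyA libraries were sequenced, per the labels' protocols. The authors deposited FPKM per gene symbol in 1 table per line. The submitters' processing notes name GRCm39 and DESeq2 without versions. Neither aligner, counter nor annotation is given in the sources used here. Column totals ran from 482580 to 511160. FPKM values are not counts, so count models were not used. Depth is an estimate, chosen to bring low values nearest to whole reads with GENCODE M21 lengths. At that depth 82.8 to 87.0% of low values lay within 0.1 of whole reads.

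Each line was fitted alone on log2(FPKM + 1), for genes averaging at least 1 FPKM, by limma 3.58.1 in R 4.3.3 with a mean-variance trend and Benjamini-Hochberg adjustment over all tested genes, at a threshold of 0.05. The code was tested on simulated data with independent noise, which lack the pairing seen among the B16-F10 wild-type libraries. Atp6v0a3 was matched as Tcirg1. Members and lists were chosen with earlier results of these data known. Named were Ssbp4, all members, up to 2 highest and 2 lowest called genes of each other list and line (or the 2 most abundant), and the 5 most abundant melanosome genes. Tfeb, Tfe3, Mitf and Gpnmb in further comparisons were named after seeing their values. As alternatives, a pseudocount of 0.1, other filters and scalings, a robust variance, library weights, chromosome centring, a replicate block and the omission of each library in turn were tried. Promoter windows were RefSeq's on GRCm38.p6, an earlier build than the authors'. Figures used matplotlib 3.10.9.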

Additional observations from a re-analysis of the deposited data

Results flagged for a closer look

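Each member was checked for a library far from the other 3 in each group of 4 libraries, in 96 groups, of which chance flags about 1 in 20. There were 6 such libraries. In wild-type MC38, library 2 was the highest for Lgmn at 13.2 FPKM (others 12.4 to 12.5) and for Man2b1 at 10.2 FPKM (others 9.05 to 9.19), and library 1 was the highest for Atp6v1a at 26.2 FPKM (others 24.3 to 24.6). In the B16-F10 knockout, library 1 was the highest for Naglu at 77.3 FPKM (others 67.3 to 68.9). Knockout library 4 was the highest for Lipa at 45.9 FPKM (others 38.8 to 39.7) and for Atp6v1a at 94.1 FPKM (others 86.4 to 87.3).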

How the results depend on the processing

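In MC38 the 17 members that rose kept that count when any library was left out, and the other settings gave 16 to 18. The count that fell was 2 with a replicate block and 3 to 5 with a library left out. In B16-F10 the members called, 1 in the main analysis, numbered 5 with library weights (4 higher, 1 lower), 0 with a replicate block, 0 after per-chromosome centring and 0 to 2 with a library left out (the same for those higher). All B16-F10 genes called, 243 in the main analysis, numbered 140 with a mean FPKM of at least 0.1, 73 without a filter, 776 with library weights, 12 with a replicate block, 154 after centring and 23 to 414 with a library left out. The cause of these shifts was not tested. Same-numbered libraries did not deviate together (correlations -0.298 to 0.165). So few correlations cannot show that libraries were unpaired, and the labels do not state whether the numbers pair them. With a replicate block the MC38 members no longer called were Lgmn (adjusted p = 0.0644), Lamp1 (0.143), Cd63 (0.0721) and Psap (0.0537). The block left Ssbp4 in B16-F10 at -0.62 (adjusted p = 0.0890) and Ctsb at 0.47 (adjusted p = 0.0765), Gm2a at adjusted p = 0.180 and Tcirg1 at 0.120. Directions that reversed were of members called in neither setting. In MC38 Gusb became 0.023 with a common total, 0.0024 with a replicate block and -0.016 to 0.0032 with a library left out, and Hexa ran from -0.0014 to 0.0404. In B16-F10 Atp6ap1 became 0.0071 with a common total, and library weights gave Ctsa -0.018, Ctsd -0.016, Gaa -0.0395, Grn -0.028 and Atp6v1a -0.016. With a library left out, B16-F10 values ran from -0.0413 to 0.0203 for Atp6ap1, -0.32 to 0.0067 for Cln3, -0.10 to 0.014 for Mcoln1, -0.039 to 0.15 for Ctsa, -0.0201 to 0.16 for Gaa, -0.014 to 0.20 for Grn and -0.021 to 0.0723 for Atp6v1a.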

Other observations

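Further gene groups around the lysosome were read in MC38 cells overexpressing Ssbp4, where 23.9% of all tested genes rose and 23.6% fell. Of 26 autophagy genes 5 rose and 6 fell (19.2% and 23.1%, near those shares; median log2 -0.07). The number called was 7 without overexpression library 3 and 5 with a replicate block. Sqstm1, the p62 cargo receptor, fell from 542 ± 35.3 to 340 ± 19.9 FPKM (SD, n = 4 and 3; limma log2 -0.67, adjusted p = 7.69e-06), and Wipi2, a phosphoinositide-binding autophagy protein, fell by 0.41 on the log2 scale. Nbr1, another cargo receptor, rose from 24.3 to 32.2 FPKM (log2 0.39), and Gabarap, an Atg8-family protein, from 112 to 137 FPKM (log2 0.28). Of 17 genes of mannose 6-phosphate sorting 5 rose and 5 fell (29.4% each; median log2 -0.04). The sorting receptor Igf2r rose from 8.20 to 10.7 FPKM (log2 0.36, adjusted p = 0.00879) and the retromer-associated Snx2 from 40.6 to 52.5 FPKM (log2 0.36). Gnptab, which adds the sorting tag, fell from 30.4 to 25.5 FPKM (log2 -0.25, adjusted p = 0.00219), as did Nagpa, which uncovers it. Among 14 melanosome genes tested in MC38, 3 rose and 1 fell (21.4% and 7.14%), and 7 were called with columns scaled to a common total. The trafficking GTPase Rab32 rose from 17.8 to 27.2 FPKM (log2 0.59), the copper transporter Atp7a rose by 0.34, and Bloc1s1, a subunit of the BLOC-1 complex, fell from 38.8 to 28.3 FPKM (log2 -0.44).

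In the B16-F10 knockout no gene of these 3 lists passed (limma), with 5 of 26 autophagy genes, 3 of 17 sorting genes and 2 of 28 melanosome genes at an unadjusted p under 0.05 (19.2%, 17.6% and 7.14%, against 21.3% of all tested genes). The most abundant genes of each list had the following wild-type and knockout means. Among autophagy genes they were 443 and 412 FPKM for Sqstm1, and 146 and 150 FPKM for Gabarap. Sqstm1 knockout libraries 1 to 3, at 371 to 395 FPKM, lay below all wild-type libraries (402 to 480 FPKM). Knockout library 4, at 505 FPKM, lay above them all. Among sorting genes, M6pr, the smaller mannose 6-phosphate receptor, had 112 and 117 FPKM. Vps29, a retromer subunit, had 84.1 and 82.8 FPKM. Among melanosome genes Tyrp1 had 4494 and 4754 FPKM. Dct had means of 3183 and 4051 FPKM (adjusted p = 0.121).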
